A study of Homo sapiens with 24 samples.

Results

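The keratin genes that mark squamous and simple epithelia, KRT5, KRT6A, KRT7, KRT8, KRT13, KRT14, KRT15, KRT17, KRT18 and KRT19, were followed across 3 human cell lines and 2 RNA fractions. The 10 genes were taken by symbol, and all were found among the 51715 genes of the count tables.

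The cell lines were A-431, an epidermoid carcinoma line, U-251MG, a glioblastoma line, and U-2 OS, an osteosarcoma line. From each, poly(A) RNA of whole cells (total RNA) and of the cytoplasm alone (cytoplasmic RNA) was sequenced, in 4 libraries per group according to the labels. The labels name no treatment for any group, and each cell type is represented by 1 established line. The study questions which transcripts differ between the fractions; the keratins add the comparison between the lines. Library 13, a cytoplasmic U-2 OS library, was left out of every mean and test, so that this group has 3 libraries, because its read totals could not be matched to an entry of the study's library list. The study removed 1 cytoplasmic U-2 OS sample in which nuclear RNA was seen, and whether it was this library is not known. Per the study's methods each line was grown in 4 biological replicates. The labels do not say which library came from which culture.

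Keratins are the intermediate filament proteins of epithelial cells. A filament needs a type I and a type II chain in equal amounts, and epithelia are recognised by the pair they make. KRT5 and KRT14 pair in the basal layer of stratified epithelia, where KRT15 is a further type I chain, KRT13 belongs to the suprabasal layers of non-cornified mucosa, and KRT6A and KRT17 appear in skin appendages and in wounded or fast-growing epidermis. KRT8 and KRT18 are the pair of simple, single-layered epithelia, in which KRT7 and KRT19 are added in ducts and glands.

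All 10 genes lie in the clusters of chromosomes 12 and 17. On GRCh37, the build of the files, KRT5 (ENSG00000186081) is at chr12:52908359-52914314 and KRT13 (ENSG00000171401) at chr17:39657233-39661957, both on the minus strand, KRT8 (ENSG00000170421) is at chr12:53290971-53343738 on the minus strand, KRT18 (ENSG00000111057), the type I gene that lies in the type II cluster, is at chr12:53342655-53346690 on the plus strand, and KRT17 (ENSG00000128422) is at chr17:39775694-39781094 on the minus strand. In the annotation the regions of KRT8 and KRT18 overlap. Reads were counted without regard to strand, so that a read lying within exons of both genes was ambiguous and counted in neither. The overlap is of whole gene regions in GENCODE, and that of the exons used for counting was not taken.

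The coding stretch at the end of the central rod, the most conserved part of a keratin, is shown because it lets the reader see how alike the members are to a sequencing read. The stretches are 45 bases from GENCODE transcripts on GRCh37, shown for 8 of the members, with capitals at the 28 positions that are identical in all 8. Type II members come first.
KRT5: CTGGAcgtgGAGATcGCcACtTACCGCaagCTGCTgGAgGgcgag
KRT6A: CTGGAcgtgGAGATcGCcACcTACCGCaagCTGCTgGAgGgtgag
KRT13: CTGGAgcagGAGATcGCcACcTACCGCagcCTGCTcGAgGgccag
KRT14: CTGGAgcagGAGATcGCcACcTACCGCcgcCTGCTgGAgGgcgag
KRT15: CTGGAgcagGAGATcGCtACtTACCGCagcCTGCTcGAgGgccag
KRT17: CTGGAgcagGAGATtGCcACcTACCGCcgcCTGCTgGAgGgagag
KRT18: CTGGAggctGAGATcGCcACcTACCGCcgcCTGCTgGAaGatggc
KRT19: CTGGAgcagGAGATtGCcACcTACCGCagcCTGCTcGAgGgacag
Of these 8, members of the same type shared a median of 40 of the 45 bases (32 to 43 over 16 pairs), and members of different types 36.5 (33 to 38 over 12 pairs). KRT14 and KRT17, the 2 members that were lower in A-431 than in U-2 OS, shared 43. As many were shared by KRT5 and KRT6A, by KRT13 and KRT15, and by KRT13 and KRT19, which were all higher in A-431.

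Over whole transcripts the members are less alike. Of all 100-base windows, the length of the reads, none of KRT7, KRT13, KRT15 or KRT19 recurred with up to 2 mismatches in a transcript of another keratin gene or keratin pseudogene. KRT5 had 6.97% of its windows in such a relative, KRT14 15.9%, KRT17 20.3% and KRT18 25.3%. KRT8 reached 49.4%, shared with processed pseudogenes, and KRT6A 58.4%, shared with KRT6B and KRT6C. Without a mismatch the shares were 18.2% for KRT6A, 7.56% for KRT8, 6.05% for KRT14, 1.64% for KRT5, 0.353% for KRT17 and 0.0% for KRT18. Reads that fit more than 1 place were not counted in any gene, and how many were lost from each member was not taken. The levels of KRT8 and KRT6A, and less so of KRT18, are therefore less certain than those of KRT13 or KRT15.

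The gene counts of the libraries summed to between 19918911 and 32394170. Markers of the labelled tissues were found in part. All 8 epithelial markers tested were higher in A-431 than in either other line, where 29.7% of all genes were higher than in U-2 OS and 28.3% than in U-251MG. CDH1 was at a mean of 540 CPM in A-431, 0.223 CPM in U-251MG and 1.56 CPM in U-2 OS total RNA (CPM, counts scaled to a common library size after edgeR's scaling of the libraries). SPARC and COL1A1, made by bone cells, were at 1545 and 1227 CPM in U-2 OS total RNA, with COL1A2 at 0.596 CPM there. In U-251MG, SPARC was at 2179 CPM and COL1A2 at 585.9 CPM, so that these genes do not set the osteosarcoma line apart. FABP7 and S100B, of glial cells, were at 66.9 and 4.57 CPM in U-251MG, where OLIG2 was at 0 in all libraries of both fractions. Of 7 glial markers, 5 were called higher and 2 lower in U-251MG than in U-2 OS total RNA (edgeR adjusted p under 0.001). Of 7 osteoblast or mesenchymal markers, 4 were higher and 2 lower in U-251MG than in U-2 OS. Among all genes 28.0% were higher and 34.9% lower. Libraries were sequenced in pairs, 1 lane to a pair: 8 of the U-251MG and U-2 OS libraries used shared a lane with an A-431 library and 7 did not. In each of their 4 groups, 2 to 5 of the 10 keratins were higher in every lane with A-431 than in any without. The reverse held for KRT8, KRT14 and KRT18 in U-2 OS cytoplasmic RNA, KRT17 in U-251MG total RNA and KRT19 in U-251MG cytoplasmic RNA. Each side held 1 or 2 libraries of a group, and the share of all genes that separate in this way was not taken.

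A-431 had the most keratin RNA. The 10 genes together took 0.642% ± 0.0363 of all gene counts in A-431 total RNA, against 0.00483% ± 0.000532 for U-251MG and 0.117% ± 0.00534 for U-2 OS (SD, n = 4 each). In cytoplasmic RNA the shares were 0.783% ± 0.102 in A-431 (n = 4), 0.00661% ± 0.000723 in U-251MG (n = 4) and 0.132% ± 0.00647 in U-2 OS (n = 3). No 2 lines overlapped in either fraction. The two-sided exact permutation p was 0.0286 for each pair of lines in total RNA and for A-431 against U-251MG in cytoplasmic RNA, the smallest that 4 against 4 libraries allow. It was 0.0571 for both cytoplasmic comparisons with U-2 OS, the smallest that 4 against 3 allow.

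Between A-431 and U-2 OS, 8 of the 10 keratins were higher and 2 lower in A-431 in total RNA, at an edgeR adjusted p under 0.001. Over all 19948 genes tested, 29.7% were called higher and 36.2% lower. The median log2 ratio of the 10 was 3.19, that of all genes -0.11. The 2 that were lower were KRT14 and KRT17. In cytoplasmic RNA the counts were again 8 and 2, with 29.7% of all genes higher and 34.6% lower, and the 10 log2 ratios had a median of 3.42. All 10 passed the filter on low counts, which takes a gene that is present in any 1 group, so that a gene that is high in 1 line only had to differ.

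Between A-431 and U-251MG, 9 of the 10 were higher in A-431 in each fraction and none lower, the exception being KRT14. Of all genes, 28.3% were called higher and 29.3% lower in total RNA, and 29.5% and 29.1% in cytoplasmic RNA. In total RNA the 10 had a median log2 ratio of 7.88, or 6.62 with the genes that had at most 3 reads in a line set at their bound or their ratio of counts. Between U-251MG and U-2 OS, 1 keratin, KRT15, was higher in U-251MG in total RNA and 6 were lower (KRT5, KRT6A, KRT8, KRT14, KRT17 and KRT18), where 28.0% of all genes were higher and 34.9% lower. The cytoplasmic counts were 1 and 6 as well, with 27.1% of all genes higher and 34.1% lower. Both other comparisons share the A-431 libraries, and each line enters 2 of the 3.

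**Figure D1:**
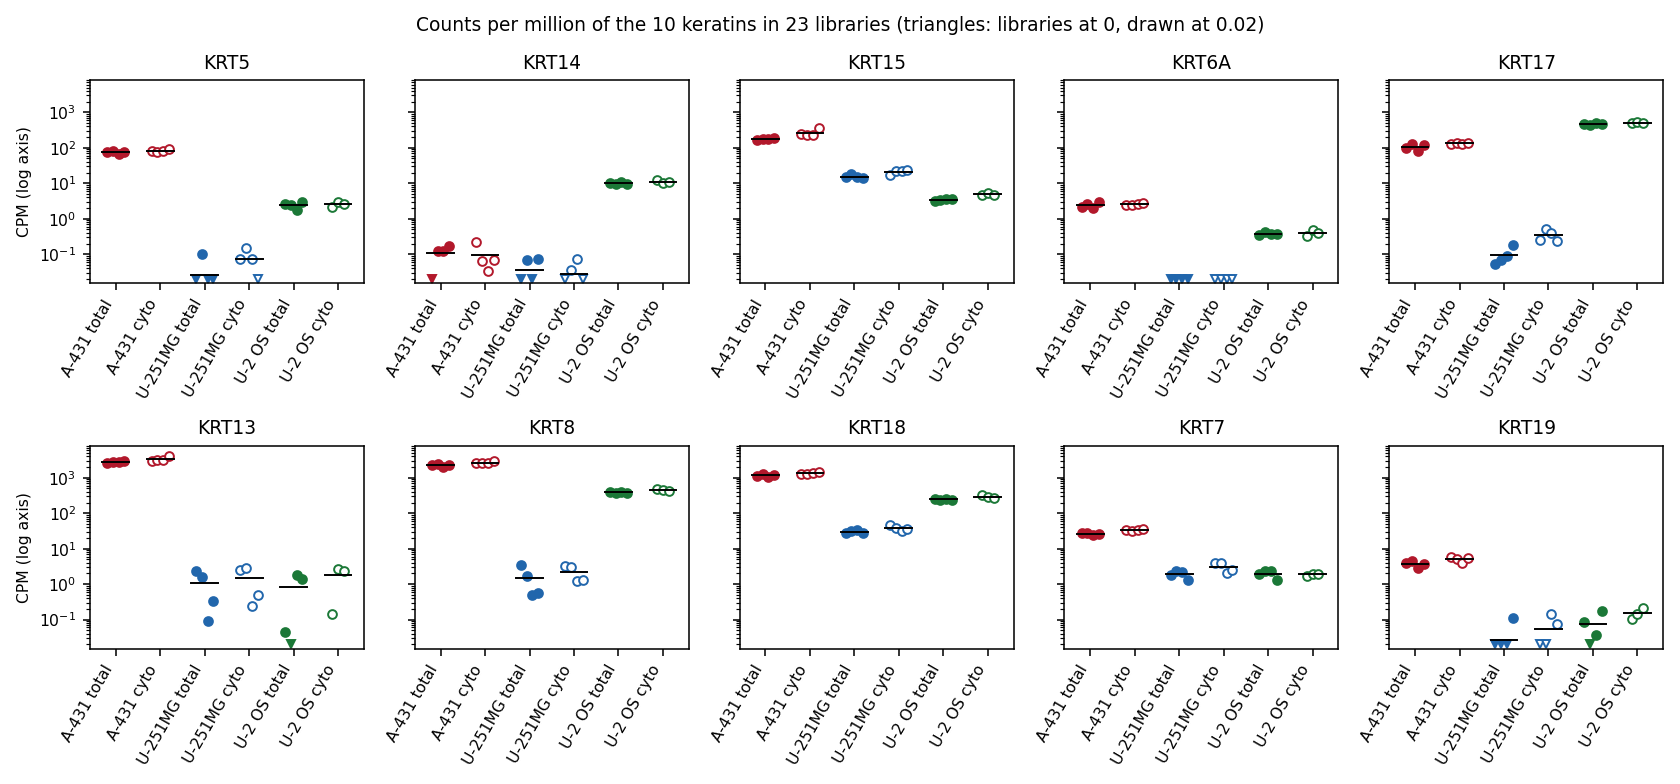
CPM of each keratin in every library used, on a log axis, for A-431 (red), U-251MG (blue) and U-2 OS (green), with total RNA as filled and cytoplasmic RNA as open symbols and the mean of each group as a bar (triangles stand for libraries without a read). KRT13, KRT5 and KRT7 were highest in A-431, KRT17 and KRT14 in U-2 OS, and KRT6A had no read in any U-251MG library.

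Among the basal keratins, KRT5, the type II chain of the basal layer, followed the epidermoid line. It had 74.8, 80.0, 67.8 and 76.7 CPM in the A-431 total libraries, against 0, 0.102, 0 and 0 CPM in U-251MG and 2.58, 2.50, 1.75 and 2.89 CPM in U-2 OS. No U-2 OS library came near an A-431 one, and all U-251MG libraries lay below those of U-2 OS. The log2 ratio of A-431 over U-2 OS was 4.94 (SE 0.127, edgeR adjusted p = 1.83e-26), a fold of 30.7. SE of an edgeR ratio, here and below, is the absolute log2 ratio divided by the square root of its F statistic. It can be smaller than the counting error where a group has few reads. Against 7730 reads in A-431, the 4 U-251MG total libraries held 3 reads together, a ratio of 2450 (95% counting interval 839 to 11900). All 3 lay in library 6, which shared a lane with an A-431 library, and the U-251MG total libraries without such a lane mate had none.

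KRT14, the usual type I partner of KRT5, did not follow it. It had 0, 0.127, 0.127 and 0.167 CPM in A-431 total RNA, against 0, 0.0678, 0 and 0.0721 CPM in U-251MG and 9.89, 9.72, 10.8 and 9.31 CPM in U-2 OS. The osteosarcoma line was the highest in KRT14, and the epidermoid line had 11 reads in 4 libraries. Its log2 ratio of A-431 over U-2 OS was -6.49 (SE 0.271, edgeR adjusted p = 8.78e-21). Between A-431 and U-251MG the log2 ratio was 1.30 (SE 0.803, edgeR adjusted p = 0.149), on 11 reads against 4, and was not called. In limma on log2(RPKM + 0.1) it was called, at 2.51 with an adjusted p of 0.000123. The deposited RPKM rests on other reads than the counts, as A-431 total library 9 had 0.931 RPKM of KRT14 without a counted read.

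KRT15, a type I keratin of basal cells, was the 1 member called higher in U-251MG than in U-2 OS. Its levels were 165, 173, 178 and 194 CPM in A-431 total RNA, against 15.4, 17.8, 14.9 and 13.8 CPM in U-251MG and 3.15, 3.31, 3.64 and 3.63 CPM in U-2 OS. The groups did not overlap. The log2 ratio was 5.69 for A-431 over U-2 OS (SE 0.145, edgeR adjusted p = 4.65e-22), 3.52 for A-431 over U-251MG (SE 0.122) and 2.17 for U-251MG over U-2 OS (SE 0.151, edgeR adjusted p = 1.34e-12). In cytoplasmic RNA the last was 2.12 (SE 0.152, edgeR adjusted p = 2.81e-12), but 1.96 with an adjusted p of 0.00152 within flow cell B alone, which holds 2 cytoplasmic libraries of U-251MG and 2 of U-2 OS. By lane, KRT15 was at 15.4 to 17.8 CPM with and 13.8 to 14.9 CPM without an A-431 lane mate in U-251MG total RNA, and at 3.63 to 3.64 CPM with and 3.15 to 3.31 CPM without in U-2 OS. In lanes without A-431 the ratio of these lines was 2.15 in total RNA (edgeR adjusted p = 1.97e-07).

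KRT17, the type I keratin of appendages and wounded epidermis, was the leading keratin of the osteosarcoma line. It had 101, 131, 83.2 and 117 CPM in A-431 total RNA, against 0.0519, 0.0678, 0.0889 and 0.180 CPM in U-251MG and 456, 426, 495 and 454 CPM in U-2 OS. Every U-2 OS library was above every A-431 library. For A-431 over U-2 OS the log2 ratio was -2.09 (SE 0.0905, edgeR adjusted p = 5.59e-19) in total RNA and -1.92 (SE 0.0940, edgeR adjusted p = 1.24e-17) in cytoplasmic RNA. U-251MG had 10 KRT17 reads in 4 total libraries, and its log2 ratio over U-2 OS was -12.08 (SE 0.187).

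KRT6A, a type II keratin of the same settings, was low throughout. It had 52, 62, 65 and 71 reads in the A-431 total libraries (2.43 ± 0.437 CPM), none in any of the 8 U-251MG libraries, and 8, 10, 10 and 11 reads in U-2 OS (0.381 ± 0.0324 CPM). Between A-431 and U-2 OS the log2 ratio was 2.66 (SE 0.222, edgeR adjusted p = 1.74e-11). Against a floor of 3 reads over the group, A-431 was at least 79.3-fold higher than U-251MG in total RNA and at least 92.5-fold higher in cytoplasmic RNA, and U-251MG was at least 12.6-fold lower than U-2 OS in total RNA. Since 58.4% of the KRT6A windows recur in relatives with up to 2 mismatches, and 18.2% without any, these levels are uncertain. KRT6B had no read in A-431 total RNA but a mean of 1.72 CPM in U-2 OS.

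KRT13, the mucosal type I keratin, was the most abundant member in A-431. It had 2638, 2841, 2709 and 2992 CPM in A-431 total RNA, against 2.38, 1.63, 0.0889 and 0.324 CPM in U-251MG and 0.0438, 0, 1.82 and 1.39 CPM in U-2 OS. As log2 ratios, A-431 was 11.35 over U-251MG (SE 0.617, edgeR adjusted p = 4.27e-12) and 11.63 over U-2 OS (SE 0.626, edgeR adjusted p = 2.96e-12). Within both U-251MG and U-2 OS the libraries fell into a higher and a lower pair.

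The higher KRT13 libraries were those sequenced in a lane with an A-431 library. The 8 libraries that shared a lane with A-431 had 40 to 78 KRT13 reads, and the 7 that did not had 0 to 13, with no overlap in any of the 4 groups. KRT13 was the 1 member of 10 for which this held over all 4 groups, and the share of all genes was not taken. In U-2 OS total RNA the counts were 50 and 40 with an A-431 lane mate, and 1 and 0 without. In U-251MG total RNA they were 46 and 48 with and 2 and 9 without. The reads of the 8 libraries were 0.0539% to 0.0767% of the KRT13 reads of their A-431 lane mate. The part of lane sharing in these low counts was not tested.

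The A-431 ratio of KRT13 depended on these lanes. Against the U-2 OS total libraries with an A-431 lane mate, A-431 was 1740-fold higher (95% counting interval 1420 to 2160), and against those without one 129000-fold (23200 to 5110000, on 1 read). Against U-251MG total libraries the folds were 1450 (1180 to 1790) and 12700 (7120 to 25500). Between U-251MG and U-2 OS the log2 ratio in total RNA was 0.28 over all lanes (SE 0.991, edgeR adjusted p = 0.811) and 3.09 in lanes without A-431 (edgeR adjusted p = 0.0399), neither of which was called. The fits by lane were added after the data had been seen.

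**Figure D2:**
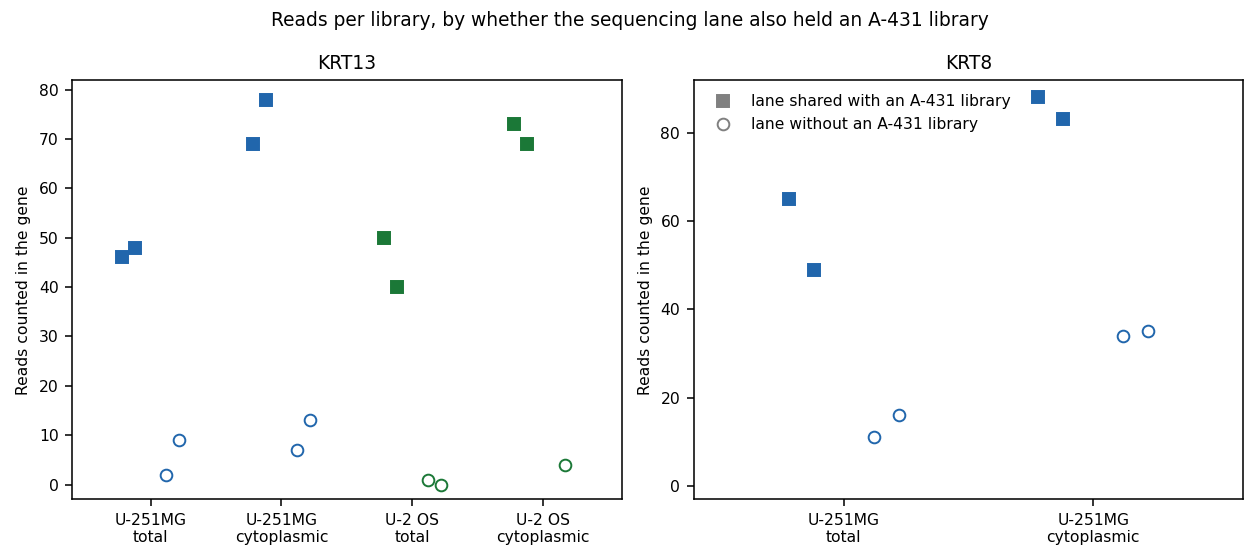
Reads counted in KRT13 and KRT8 in single libraries, on a linear axis, for U-251MG (blue) and U-2 OS (green) by whether the lane also held an A-431 library (filled squares) or not (open circles). In KRT13 the filled squares lie at 40 to 78 reads and the open circles at 0 to 13, and in KRT8 of U-251MG at 49 to 88 and 11 to 35.

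KRT8, the type II keratin of simple epithelia, was abundant in both A-431 and U-2 OS. It had 2250, 2398, 2020 and 2290 CPM in A-431 total RNA, against 3.37, 1.66, 0.489 and 0.576 CPM in U-251MG and 391.8, 378, 408.0 and 376 CPM in U-2 OS. The log2 ratio of A-431 was 2.53 over U-2 OS (SE 0.203, edgeR adjusted p = 1.21e-09), a fold of 5.77, and 10.60 over U-251MG (SE 0.320, edgeR adjusted p = 2.86e-16). As with KRT13, the higher U-251MG libraries were those with an A-431 lane mate, at 65 and 49 reads with and 11 and 16 without in total RNA, and 88 and 83 with and 34 and 35 without in cytoplasmic RNA. In lanes without A-431, A-431 total RNA was 4140-fold above U-251MG (95% counting interval 2850 to 6280), and in shared lanes 951-fold (792 to 1150).

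KRT18, the type I partner of KRT8, had at least 543 reads in every library of all 3 lines. Its levels were 1145, 1238, 1053 and 1203 CPM in A-431 total RNA, against 28.2, 31.9, 33.3 and 26.8 CPM in U-251MG and 250.9, 237, 244 and 241 CPM in U-2 OS. No 2 lines overlapped. The U-251MG total levels with an A-431 lane mate (28.2 to 31.9 CPM) lay within those without one (26.8 to 33.3 CPM), while in cytoplasmic RNA they were above them (39.0 to 47.1 and 31.3 to 35.3 CPM). The log2 ratio was 2.25 for A-431 over U-2 OS (SE 0.0848, edgeR adjusted p = 1.32e-21), 5.27 for A-431 over U-251MG (SE 0.0987) and -3.02 for U-251MG over U-2 OS (SE 0.0905, edgeR adjusted p = 3.93e-24).

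KRT8 and KRT18 were at like levels in A-431 and U-2 OS and not in U-251MG. Levels per length are RPKM, reads scaled to exon length and library size and meant for comparison between genes. The deposited RPKM did not follow from the counts and exon lengths used here. In A-431 total RNA, KRT13 had 2795 CPM and 14670 RPKM over 2913 bases of exon, so that comparisons between genes are uncertain. By this RPKM, the ratio of KRT8 to KRT18 was 1.45 ± 0.0299 in A-431 total RNA (SD, n = 4). It was 0.0364 ± 0.0321 for U-251MG and 1.19 ± 0.0512 for U-2 OS (SD, n = 4 each). U-251MG therefore had KRT18 RNA with little KRT8 RNA. A-431 and U-2 OS did not overlap, with a two-sided exact permutation p of 0.0286 in total RNA and of 0.0571 in cytoplasmic RNA, where the ratios were 1.47 ± 0.0294 (n = 4) and 1.07 ± 0.0551 (n = 3). Adjusted over the 4 ratios compared, both were 0.114.

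KRT7, a type II keratin of glands and ducts, was high in A-431 and low in both other lines. It had 26.8, 27.2, 24.5 and 26.2 CPM in A-431 total RNA, against 1.87, 2.34, 2.27 and 1.33 CPM in U-251MG and 1.88, 2.33, 2.40 and 1.29 CPM in U-2 OS. A-431 had a log2 ratio of 3.74 over U-251MG (SE 0.161) and 3.73 over U-2 OS (SE 0.160, edgeR adjusted p = 1.08e-19). For U-251MG over U-2 OS it was -0.01 in total RNA (SE 0.209, edgeR adjusted p = 0.965) and 0.74 in cytoplasmic RNA (SE 0.205, edgeR adjusted p = 0.00179), neither of which was called. The cytoplasmic ratio was called by DESeq2 (0.72, adjusted p = 0.000597), and by edgeR without the filter (0.78, adjusted p = 2.01e-05), with all 24 libraries (0.71, adjusted p = 0.00098), within flow cell B (adjusted p = 2.33e-05) and without any 1 of 4 libraries (U-2 OS total 4, U-251MG total 8, U-251MG cytoplasmic 19 or 20). The cytoplasmic U-251MG libraries with an A-431 lane mate had 3.86 and 4.07 CPM and the others 2.10 and 2.46 CPM. In lanes without A-431 the ratio was 0.43 (edgeR adjusted p = 0.163), and the part of the lanes was not tested.

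KRT19, the smallest type I keratin, was low in all lines. It had 99, 107, 89 and 87 reads in the A-431 total libraries (3.74 ± 0.713 CPM), against 0, 0, 0 and 3 reads in U-251MG and 2, 0, 1 and 5 reads in U-2 OS. Over U-2 OS, A-431 had a log2 ratio of 5.49 (SE 0.387, edgeR adjusted p = 1.50e-14), and the ratio of reads over U-251MG was 121 (95% counting interval 41.2 to 590.0). Between U-251MG and U-2 OS the ratio of reads was 2.57 in favour of U-2 OS, with an interval of 0.618 to 15.1. The edgeR log2 ratio of U-251MG over U-2 OS was -1.24 (adjusted p = 0.276), and 0.43 in lanes without A-431 (adjusted p = 0.801). In cytoplasmic RNA it was -1.42 (adjusted p = 0.109), and 0.07 in those lanes (adjusted p = 0.972), and none of these was called.

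Set side by side by the deposited RPKM, with the same limit, the members had a different order in each line. In A-431 total RNA, KRT13 led with a mean of 14670 RPKM, followed by KRT8 (6307), KRT18 (4347), KRT15 (948.5), KRT17 (585.0), KRT5 (278) and KRT7 (126), and no neighbours overlapped in their libraries. KRT19 (17.3) and KRT6A (9.71) followed and did overlap, and KRT14 was last (1.06). In U-2 OS the order was KRT17 (2521 RPKM), KRT8 (1104), KRT18 (923) and KRT14 (54.6), each above the next in every library, while KRT15, KRT7, KRT5 and KRT13 (22.1 to 4.74) each overlapped their neighbour.

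In U-251MG total RNA, KRT18 (115 RPKM) was above KRT15 (72.8), which was above KRT7 (12.9), and all other neighbours overlapped. In cytoplasmic RNA KRT18 and KRT15 overlapped. In the cytoplasmic RNA of A-431 the order was the same as in total RNA, and in U-2 OS KRT8 and KRT18 overlapped there.

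A single type I keratin made up the largest share of the summed RPKM of the 10 genes in each line, and it was a different one in each. It was KRT13 in A-431 (53.8% of the sum in total RNA), KRT18 in U-251MG (54.3%) and KRT17 in U-2 OS (54.2%). KRT8 took 23.1% in A-431, against 1.97% for U-251MG and 23.7% for U-2 OS. In the deposited RPKM, type I RNA exceeded type II RNA 3.07-fold ± 0.181 in A-431 and 3.13-fold ± 0.0450 in U-2 OS (SD, n = 4 each). The difference of -0.0675 was within the spread (two-sided exact permutation p = 0.457, adjusted over 4 ratios 0.610). In U-251MG the ratio ran from 7.99 to 28.7 over the 4 libraries.

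**Figure D3:**
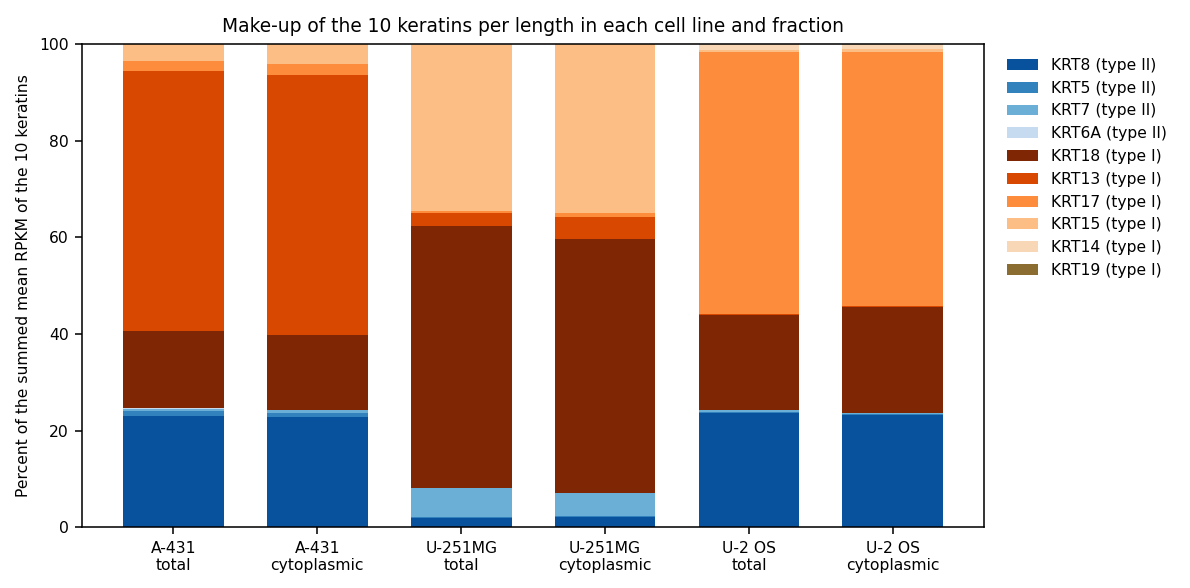
Share of each keratin in the summed mean RPKM of the 10 genes, in percent on a linear axis from 0, with type II genes in blue and type I genes in brown to orange, for each cell line and fraction. KRT13 took 53.8% in A-431 total RNA, KRT18 54.3% in U-251MG and KRT17 54.2% in U-2 OS, with little difference between the fractions of a line.

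The fractions differed far less than the lines. In A-431, 9 keratins could be tested and every log2 ratio of total over cytoplasmic RNA was below 0, with a median of -0.24 against -0.01 over all genes. No keratin was higher and 1, KRT7, was lower in total RNA at an edgeR adjusted p under 0.001, where 10.2% of the 16376 genes tested were called higher and 9.51% lower. KRT7 had 26.8, 27.2, 24.5 and 26.2 CPM in total RNA and 33.99, 31, 33.3 and 35.7 CPM in cytoplasmic RNA, without overlap, and a log2 ratio of -0.34 (SE 0.0657, edgeR adjusted p = 0.000428). Without total library 9, 11 or 12 or cytoplasmic library 21 or 23, the KRT7 ratio was between -0.31 and -0.36. The adjusted p then was 0.00159 to 0.00203. In 1 model over 6 groups KRT7 was at -0.36 (SE 0.121, edgeR adjusted p = 0.0197) and was not called.

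KRT15 had the lowest A-431 ratio, -0.56 (SE 0.123, edgeR adjusted p = 0.00274). Its levels were 165, 173, 178 and 194 CPM in total RNA and 249, 236, 226 and 351 CPM in cytoplasmic RNA. Without cytoplasmic library 24, the highest, the ratio was -0.40 and passed the threshold (adjusted p = 5.49e-05). It also passed in 1 model over 6 groups, at -0.58 (SE 0.105, edgeR adjusted p = 0.000145), where 14.5% of all genes were called. KRT13 was also highest in library 24, at 4207 CPM where the other 3 had 2963 to 3099.

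In U-2 OS, 8 of 9 ratios were below 0, with a median of -0.16 and none called higher and 1, KRT18, lower, where 4.75% of 18049 genes were called higher and 3.61% lower. KRT18 had 250.9, 237, 244 and 241 CPM in total RNA and 315, 295 and 275 CPM in cytoplasmic RNA, a log2 ratio of -0.27 (SE 0.0513, edgeR adjusted p = 0.000110). It was -0.27 without total library 2 (adjusted p = 0.00142) and -0.23 without cytoplasmic library 14 (adjusted p = 0.00482). KRT8 was at -0.20 (SE 0.0527, edgeR adjusted p = 0.00390) and KRT15 at -0.51 (SE 0.137, edgeR adjusted p = 0.00477).

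In U-251MG, 5 keratins could be tested, all 5 ratios were below 0 (median -0.52) and none was called by edgeR, where 5.93% of 16128 genes were called higher and 6.98% lower in total RNA. There were 3 at an unadjusted p under 0.05 (KRT7, KRT15 and KRT18). All 3 had an adjusted p under 0.05 too, where 48.8% of all genes were called. DESeq2 called 1, KRT15, at -0.47, and 26.5% of all genes. The edgeR ratio of KRT15 was -0.48 (SE 0.112, adjusted p = 0.00377), close to its ratios in the other lines, and the KRT15 levels were 15.4, 17.8, 14.9 and 13.8 CPM in total RNA and 17.2, 22.2, 22.1 and 23.7 CPM in cytoplasmic RNA.

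Base composition and flow cell moved with the fractions. The keratin transcripts were 55.8% to 62.0% G and C, all 10 above the median of 49.6% over 19062 genes. With an offset for GC content in the model, the keratins of A-431 had a median ratio of 0.05, those of U-251MG of -0.18 and those of U-2 OS of 0.04, and no keratin was called. KRT7 in A-431 was then at -0.01 (SE 0.0521, edgeR adjusted p = 0.95), KRT18 in U-2 OS at -0.12 (SE 0.0410, edgeR adjusted p = 0.0544), and KRT15 at -0.37 in A-431 cells, -0.20 in U-251MG cells and -0.38 in U-2 OS cells. All total libraries were on flow cell A and all cytoplasmic A-431 libraries on flow cell B, so that fraction and flow cell cannot be told apart in A-431. Within flow cell A, 5 of 9 ratios were below 0 in U-2 OS (median -0.13) and 3 of 5 in U-251MG (median -0.17). There KRT18 in U-2 OS was at -0.39 (SE 0.0725, edgeR adjusted p = 0.000700) against 1 cytoplasmic library, and KRT15 in U-251MG was at -0.58 (SE 0.118, edgeR adjusted p = 0.00476).

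**Figure D4:**
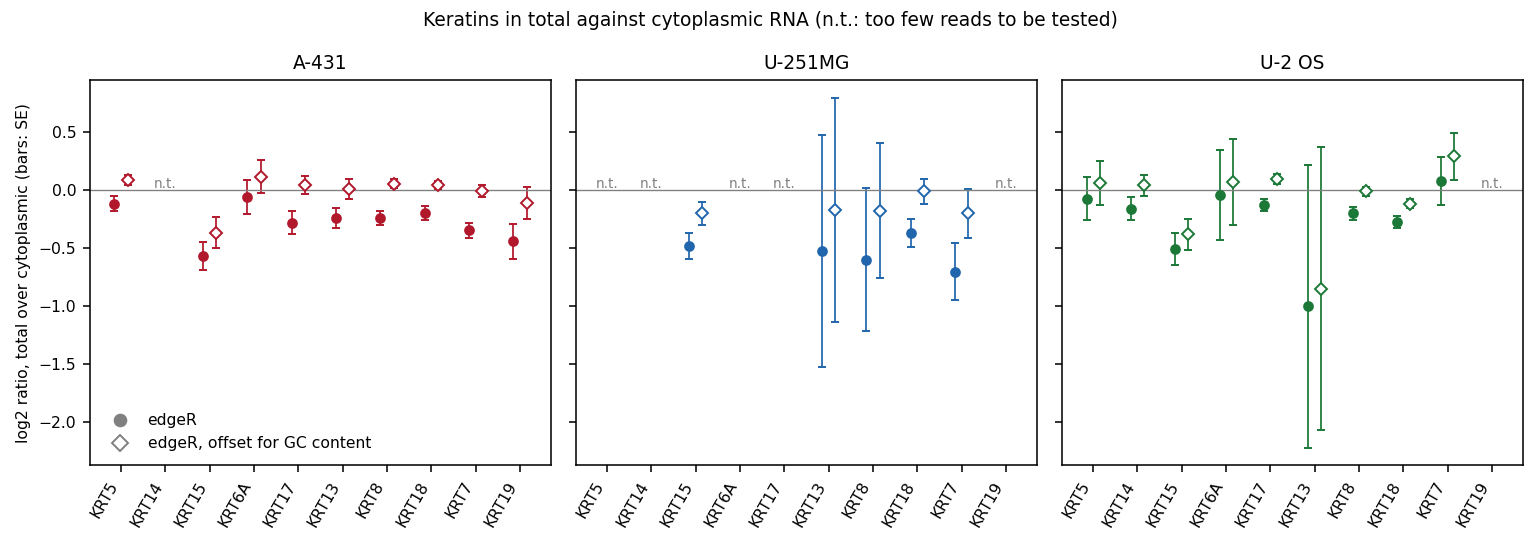
Log2 ratio of total over cytoplasmic RNA for each keratin in each cell line, from edgeR (filled circles) and from edgeR with an offset for GC content (open diamonds). Bars are the SE taken from the F statistic. The filled circles lie mostly below 0, with a median of -0.24 for A-431, of -0.52 for U-251MG and of -0.16 for U-2 OS, and the diamonds of A-431 and U-2 OS centre near 0 (0.05 and 0.04).

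The ratio of the fractions was not shown to differ between lines for any keratin (edgeR interaction term, adjusted p under 0.05). This held for A-431 against U-2 OS, where 2.12% of all genes were called and no keratin had an unadjusted p under 0.05, and for A-431 against U-251MG, where 0.16% were called and 1 keratin was below that p. It also held for U-251MG against U-2 OS, where 1.67% were called and 2 keratins were below it. These percentages are at the adjusted p, and the share of all genes at the unadjusted p was not taken. The nearest was KRT17, whose ratio was lower in U-251MG than in U-2 OS by a log2 difference of -1.61, on 10 and 38 reads in the 4 total and 4 cytoplasmic U-251MG libraries. DESeq2 called it (adjusted p = 0.0362), and edgeR without the filter on low counts did too (adjusted p = 0.0255).

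Of the 51 other keratin genes, 6 of which carry pseudogene symbols and are counted again among the pseudogenes, 19 could be tested. In total RNA 8 were higher and 6 lower in A-431 than in U-2 OS, and 6 higher and 1 lower in A-431 than in U-251MG. For this and the lists that follow, the shares of all genes were 29.7% higher and 36.2% lower than in U-2 OS, and 28.3% higher and 29.3% lower than in U-251MG. In total RNA 4 were higher in A-431 than in both (KRT9, KRT16, KRT32 and KRT81). KRT16, the usual type I partner of KRT6A, had 9.72 ± 1.71 CPM in A-431, 0.403 ± 0.276 CPM in U-251MG and 1.11 ± 0.256 CPM in U-2 OS. In U-2 OS, KRT75, the type II keratin of the hair follicle's companion layer, had 110.5 ± 4.34 CPM, against 0.0300 ± 0.0601 in A-431 and 0 in U-251MG.

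KRT80 and KRT81, by contrast, were abundant in all lines. KRT80, a type II keratin, had 422 ± 33.5 CPM in A-431, 217 ± 19.2 CPM in U-251MG and 480.0 ± 18.8 CPM in U-2 OS total RNA. KRT81, a type II hair keratin, had 1839 ± 189 CPM in A-431, 1387 ± 139 CPM in U-251MG and 225 ± 6.82 CPM in U-2 OS. Per length, both were above every one of the 10 members in U-251MG total RNA, at 3258 RPKM for KRT81 and 316 RPKM for KRT80, where KRT18 led the members with 115 RPKM.

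Of 115 keratin pseudogenes, 62 could be tested in the fit across lines. In total RNA 50 were higher and 3 lower in A-431 than in U-2 OS (median log2 ratio 2.13), and 58 were higher and none lower than in U-251MG (median 5.37). KRT8P33, the highest, had 200 CPM in A-431, 1.35 CPM in U-251MG and 38.3 CPM in U-2 OS total RNA, where KRT8 itself had 2240, 1.52 and 388. Reads of a gene and of its copy cannot be told apart where both are the same, so that these levels are uncertain.

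Among the intermediate filaments of other cell types, VIM, the vimentin of mesenchymal cells, had 2.66 ± 1.20 CPM in A-431, 6857 ± 345 CPM in U-251MG and 1878 ± 41.6 CPM in U-2 OS total RNA. Of 11 such genes tested, 2 were higher and 7 lower in A-431 than in U-2 OS, and 1 was higher and 5 lower than in U-251MG. U-251MG thus had the least RNA of the 10 keratins and the most vimentin RNA.

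The proteins that anchor keratin filaments at desmosomes and hemidesmosomes were mostly higher in A-431. Of 10 tested, 8 were higher and 2 lower than in either other line in total RNA, the 2 being PLEC and DST, large linkers that also bind other filaments. DSP, the desmoplakin that ties keratin to desmosomes, had 731 ± 111 CPM in A-431, 0.292 ± 0.279 CPM in U-251MG and 1.49 ± 0.471 CPM in U-2 OS. U-2 OS therefore had KRT17, KRT8 and KRT18 with little desmoplakin RNA. FAM83H, which organises keratin filaments, had 124 CPM in A-431, 0.0304 CPM in U-251MG and 52.1 CPM in U-2 OS.

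Transcription and splicing factors of epithelial cells were mostly higher in A-431. In total RNA 15 of 16 were higher in A-431 than in U-2 OS and 15 of 16 than in U-251MG. TP63, the basal cell factor, had 37.5 CPM in A-431, 0.154 CPM in U-251MG and 0.395 CPM in U-2 OS. KLF5 was the one without a call between A-431 and U-2 OS, at 53.0 and 54.1 CPM. Of the 4 repressors of epithelial genes, 3 were lower and none higher in A-431 than in U-2 OS, and 3 lower and 1, SNAI1, higher than in U-251MG (log2 ratio 4.06). SNAI1 had 0.928 CPM in A-431, 0.0485 CPM in U-251MG and 6.34 CPM in U-2 OS total RNA, and SNAI2 had 15.5 CPM in A-431, 26.8 CPM in U-251MG and 13.1 CPM in U-2 OS. ZEB1 had 2.03 CPM in A-431, 81.5 CPM in U-251MG and 79.6 CPM in U-2 OS, and ZEB2 had 0.365, 40.9 and 0.998 CPM in the same order of lines. The log2 ratio of ZEB1 in U-251MG over U-2 OS was 0.03 (SE 0.0948, edgeR adjusted p = 0.758).

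The genes whose log2 CPM ran most like KRT5 over the 23 libraries were FBXO2 (Pearson r = 0.997), ERBB3 (0.995) and LCN2 (0.994). For KRT18 they were TRIM29 (0.998) and KRT18P11 (0.997), a pseudogene of KRT18 itself. The 23 libraries fall into 3 lines, so that these values describe the order and spacing of the lines and carry no test.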

How the data were processed

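Reads were produced by the authors, who used TopHat 1.1.4 (hg19) and SAMtools 0.1.8, and the deposited whole-number counts per Ensembl gene were made by the authors with HTSeq 0.4.6, without strand, for reads within exons. The deposited RPKM values are the authors' output of rpkmforgenes and were used to compare genes, for ratios between genes and, with limma, as an alternative. The labels name Trizol and paired-end libraries, while the study's methods describe RNeasy and single reads. The 6 entries per file that name no gene were removed. Reads outside genes, ambiguous or not unique were together 25.9% to 33.6% of a library, and those not unique alone 11.7% to 13.6%.

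Libraries were tied to flow cells and lanes by matching their read totals within each group to the study's list, which identified 23 of 24. Symbols and coordinates came from GENCODE v44lift37 (42986 IDs matched). NEFL and EPPK1, of the lists, were not matched. Counts were analysed with edgeR 4.0.16 in R 4.3.3 (TMM, filterByExpr with a minimum count of 10, robust quasi-likelihood test, p-values adjusted after Benjamini and Hochberg across every gene tested). Lines and interactions came from 1 model over 6 groups, with thresholds of 0.001 and 0.05, and fractions from a model per line. limma 3.58.1 on log2(RPKM + 0.1 or 1) and DESeq2 1.42.0 were alternatives. Scripts were tested on simulated data. The 10 members were named whatever their values; of the other keratins, those higher in A-431 than in both other lines and the most abundant were named; of the pseudogenes, the most abundant. Other genes named from the lists were chosen after their values were seen. The members and lists were chosen with earlier results of these data known. Counting intervals are exact (Clopper-Pearson, 95%) and, like the floor of 3 counts, cover counting error only. The stretches of KRT7 and KRT8 at the end of the rod are not reported here.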

Additional observations from a re-analysis of the deposited data

Results flagged for a closer look

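In 4 of the 48 combinations of keratin and group with 4 libraries and some spread, 1 library stood far from the other 3 by Dixon's criterion at 95%, where chance gives about 1 in 20. KRT13 was at 4210.0 CPM in A-431 cytoplasmic library 24, above 2963 to 3099 CPM in the others, and KRT5 was at 91.0 CPM in the same library, above 78.5 to 79.3 CPM. KRT5 had 0.102 CPM in U-251MG total library 6, from 3 reads, and none in the other 3. KRT19 had 0.108 CPM in U-251MG total library 8, also from 3 reads, and none in the other 3. Against other libraries without a read, any count meets the criterion. The rate of 1 in 20 therefore does not hold for KRT5 in library 6 or KRT19 in library 8.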

How the results depend on the processing

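The counts of keratins called between lines kept within 1.5 times of their value under every alternative that was run (RLE scaling, DESeq2, no filter, all 24 libraries, 2 groups at a time, RPKM with limma, a fold of at least 4, flow cell B, lanes without A-431, and each library left out, which gave 10, 9 and 7 in total RNA and 10, 9 and 7 to 8 in cytoplasmic RNA). The share of all genes called ran from 19.7% (fold of at least 4) to 69.9% (2 groups at a time). Fits with a library left out were not included in this range. No called ratio changed sign. Each library left out in turn gave 0 for the interaction terms of A-431 and 0 to 1 for U-251MG against U-2 OS. For the latter, DESeq2 also gave 1, with 7.27% of all genes called, and so did no filter, with 2.45%.

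Between fractions the calls depended on the setting. In A-431, 1 keratin was called in the main fit, where 19.7% of all genes were. At an adjusted p under 0.05 it was 7 (50.6% of all genes), without the filter 4 (17.4%) and with DESeq2 2 (26.1%). There was none with the GC offset (8.45%) or with RPKM and limma at a pseudocount of 0.1 (1.56%) or 1 (1.37%). In 1 model over 6 groups (14.5%) the 1 call was KRT15 and not KRT7. A library left out gave 0 to 2. In U-251MG the 0 calls (12.9% of all genes) became 3 at an adjusted p under 0.05 (48.8%) and 1 without the filter (13.5%). DESeq2 also gave 1 (26.5%), and any library left out gave 0. In U-2 OS, 1 keratin was called in the main fit, where 8.36% of all genes were. At an adjusted p under 0.05 it was 3 (28.6% of all genes) and without the filter 2 (7.3%). There was none in 1 model over 6 groups (0.952%), with the GC offset (3.06%) or with RPKM at either pseudocount (0.0%). A library left out gave 0 to 2. The shares of all genes with a library left out are not reported here. The cause was not tested, except that fewer libraries or a wider threshold change the calls by construction.

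The share of keratins in all counts differed by 0.515 to 0.541 percentage points between A-431 and U-2 OS total RNA with 1 library left out, by 0.627 to 0.653 against U-251MG, and by -0.113 to -0.109 for U-251MG against U-2 OS. In cytoplasmic RNA these were 0.601 to 0.670, 0.726 to 0.795 and -0.129 to -0.123. With 3 against 4 libraries the exact p cannot fall below 0.0571. With all 24 libraries the cytoplasmic differences from U-2 OS were 0.651 for A-431 and -0.126 for U-251MG, each with an exact p of 0.0286. Library 13, left out elsewhere, had 501 CPM of KRT17, 454 of KRT8 and 2 reads of KRT13. The labels number the libraries 1 to 24, so that no 2 groups share a number. Numbers 1 to 4 of the study's list of libraries were therefore used, after the data had been seen, as a replicate block between fractions. This gave 3 calls for A-431 (KRT7, KRT15 and KRT17) and 0 for U-251MG. In U-2 OS it gave 2 (KRT8 and KRT18), with 1 call without the block in the same 6 libraries. Of all genes, 26.2% were called with this block in A-431, 19.2% in U-2 OS (7.4% without it in those libraries) and 9.81% in U-251MG. Same-numbered libraries did not deviate together in every pair (correlation over genes of 0.0176 to 0.391 in A-431, of -0.610 to 0.438 for U-251MG and of 0.0278 to 0.311 for U-2 OS), so that they are not treated as pairs. Each total library of U-2 OS with a partner, but not each of A-431 or U-251MG, correlated best with its own number.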
